A study of Saccharomyces cerevisiae with 6 samples.

Results

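The NuA4 histone acetyltransferase of budding yeast was described through 10 of its subunits, EAF1, EAF3, EAF5, EAF6, EAF7, EPL1, ESA1, YNG2, ARP4 and TRA1, out of 5656 genes that have a probe set of their own on the array. Each subunit was read from the brightest probe set annotated to that gene alone. All 10 were found, and only TRA1 had more than 1 such probe set. EAF7 was selected on its low intensity in the gpa2 deletion against wild type, so its values are a description with no test, while the other 9 subunits were chosen by their place in the same complex. Probe sets whose mean over all arrays was dim were left out of the fit, which left 9 of the 10 subunits; EPL1, with a mean log2 intensity of 5.92 against a limit of 6.16, was the one left out.

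The samples were total RNA of yeast, each on its own single-colour oligonucleotide array, 6 in all, from strain W303-1a, a common laboratory background of mating type a. They comprised 2 arrays of a GPA2 deletion (gpa2), 2 of a GPR1 deletion (gpr1) and 2 of wild type. GPR1 encodes the receptor that senses glucose and GPA2 the G-protein alpha subunit that acts with it upstream of cAMP, and the study asked how this system bears on cell size in glucose. The sources used here do not give the growth medium, the marker that replaced each gene or the number of clones per genotype. Whether the 2 arrays of a genotype stand for 2 cultures is not stated in the labels, and the p-values then cover only the spread between these samples, possibly a technical one.

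NuA4 transfers acetyl groups to histones H4 and H2A and to the variant Htz1, and is recruited to promoters by transcription activators, those of ribosomal protein genes among them. Esa1 is its catalytic subunit and the only one of the yeast histone acetyltransferases that cells need for growth. Esa1, Epl1, Yng2 and Eaf6 form the catalytic core, Eaf1 is the platform on which the other modules assemble, and Eaf3, Eaf5 and Eaf7 form a module that also exists apart from the complex. Arp4 and Tra1 are shared with other chromatin complexes.

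Array brightness and the 3' to 5' ratios of control probe sets differed between the samples. Median intensities as deposited were 225.1 and 237.6 for the gpa2 deletion, 525.9 and 265.4 for the gpr1 deletion, and 562.9 and 373.6 for wild type, so the arrays were quantile normalised before log2 was taken. The deleted genes bore out the labels, with GPA2 at 9.3 and 10.9 on the gpa2 arrays and GPR1 at 5.1 and 2.8 on the gpr1 arrays, against at least 1029.2 and 490.7 on the other arrays. SPT15 carries control probe sets at its 3' and 5' ends, and their ratio reflects how intact the RNA was; wild-type array 2 stood apart at 10.3, with the other 5 arrays between 3.16 and 4.83. For ACT1 the same ratio was 1.54 and 1.53 on the gpa2 arrays and 1.35 and 1.53 on the gpr1 arrays, against 1.26 and 1.29 on those of wild type. The ACT1 ratio thus did not set wild-type array 2 apart, and the RNA quality of that array remains unsettled. All 6 markers of mating type a passed the filter, with deposited intensities of 495.7 or more. Of 4 markers of mating type alpha, 3 passed; the lowest of the 4 read 33.8 and the highest 691.1.

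EAF7, a subunit of the Eaf3, Eaf5 and Eaf7 module (YNL136W, chromosome XIV), had readings, as deposited, of 48.4 and 41.8 on the gpa2 arrays and 542 and 166.2 on the gpr1 arrays, against 582 and 326.2 on the wild-type arrays. Both gpa2 arrays lay below all 4 others, while the gpr1 and wild-type arrays overlapped. After scaling, its log2 intensity was 6.18 and 6.11 in the gpa2 deletion, 8.55 and 7.86 in the gpr1 deletion, and 8.56 and 8.32 in wild type. EAF7 was thus 4.90-fold lower in the gpa2 deletion than in wild type (a log2 change of -2.29 with a standard error of 0.34, n = 2 arrays per group) and 4.17-fold lower than in the gpr1 deletion (-2.06 ± 0.34). Both values use the gpa2 arrays on which EAF7 was selected, so the second is not separate from the first. The standard errors describe the spread between arrays and carry no test for EAF7. In total RNA, fewer cells that express a gene and less of its RNA per cell cannot be told apart.

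In the gpr1 deletion the EAF7 log2 change against wild type was -0.23 ± 0.34. Its sign turned with 1 array, reading -0.58 when gpr1 array 1 was left out and 0.12 when gpr1 array 2 was. The 2 comparisons against wild type share the wild-type arrays. The EAF7 change in the gpa2 deletion against wild type was -2.41 without wild-type array 2, the array with the high SPT15 ratio, and -2.17 without wild-type array 1. Against the gpr1 deletion it was -1.71 and -2.41 without gpr1 array 1 or 2.

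**Figure D1:**
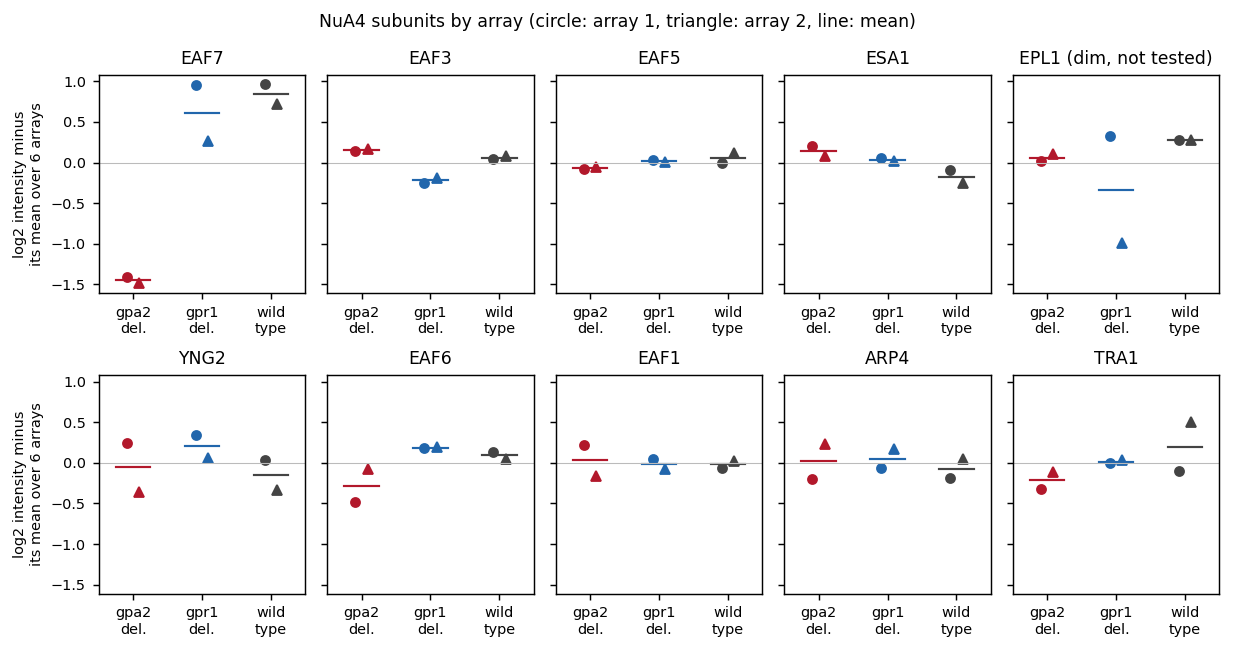
Log2 intensity of each of the 10 subunits, minus its mean over the 6 arrays, by genotype (circles array 1, triangles array 2, lines group means). EAF7 lies at -1.41 and -1.49 on the gpa2 arrays and at 0.26 or above on the other 4, whereas the other 9 subunits stay between -0.99 and 0.50.

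EAF7 was near the dim end of the scale in the gpa2 deletion. Its group mean there, 6.15, lay beside the filter limit of 6.16, and it passed the filter through the other 4 arrays. Both gpa2 readings were above the floor of the scale, an intensity of 8.94. No detection call was used here, so how much of the low readings is background was not tested.

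A rank on each array needs no scaling. By deposited intensity, EAF7 stood at percentile 24.6 and 24.1 of the probe sets on the gpa2 arrays, at 50.6 and 41.4 on the gpr1 arrays, and at 50.6 and 47.5 in wild type. Its rank therefore spanned 26.5 percentile points over the 6 arrays. For the other 9 subunits the span ran between 2.42 points, for EAF5, and 9.27 points, for YNG2.

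**Figure D2:**
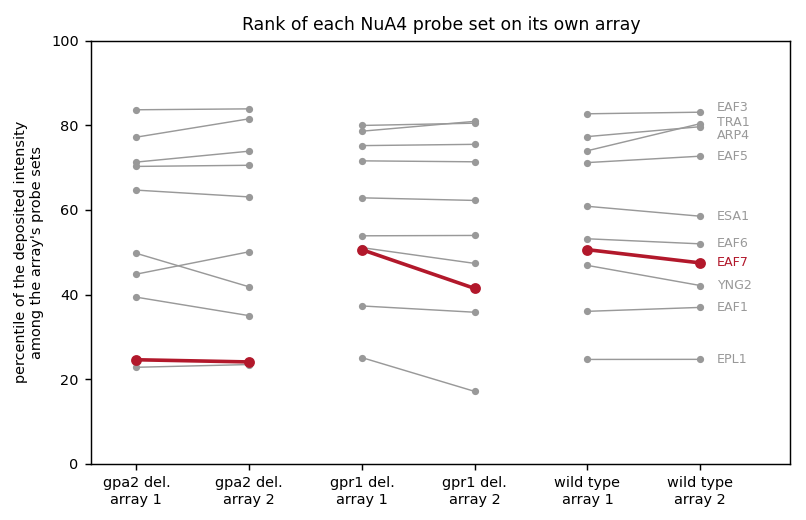
Percentile of each subunit's deposited intensity among all probe sets other than controls on the same array, by array (red, EAF7; grey, the other 9 subunits). EAF7 stands at percentile 24.6 and 24.1 on the gpa2 arrays and between 41.4 and 50.6 elsewhere, while no other subunit moves by more than 9.27 points.

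EAF7 was set against the rest of the complex within each array. Its log2 intensity minus the mean of the other 9 subunits was -2.89 and -2.97 on the gpa2 arrays and -0.62 and -1.15 on the gpr1 arrays, against -0.55 and -0.84 on the wild-type arrays. The mean of those 9 subunits ranged only between 9.01 and 9.18 over the 6 arrays. The shift of EAF7 against the rest was -2.24 in the gpa2 deletion against wild type, -2.04 in the gpa2 against the gpr1 deletion, and -0.20 in the gpr1 deletion against wild type. The last of these was 0.07 without gpr1 array 2. On the deposited values, the ratio of EAF7 to the geometric mean of the 9 others was 0.148 and 0.120 in the gpa2 deletion, 0.656 and 0.445 in the gpr1 deletion, and 0.681 and 0.550 in wild type. A ratio within an array shows unequal change between probe sets and gives no amount of either transcript.

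The partners of EAF7 in its module were EAF3 and EAF5. EAF3 (YPR023C), a chromodomain protein that is also part of an Rpd3 histone deacetylase complex, had log2 intensities of 11.23 and 11.25 in the gpa2 deletion, 10.84 and 10.89 in the gpr1 deletion, and 11.12 and 11.17 in wild type. Its arrays did not overlap between any 2 groups, with the gpa2 arrays highest and the gpr1 arrays lowest. By limma its log2 change was 0.10 ± 0.19 in the gpa2 deletion against wild type (adjusted p = 0.890), -0.28 ± 0.19 in the gpr1 deletion against wild type (adjusted p = 0.914) and 0.38 ± 0.19 between the deletions (adjusted p = 0.9997). None of these passed.

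EAF5 (YEL018W), which holds the module to the complex, had log2 intensities of 9.98 and 10.002 in the gpa2 deletion, 10.09 and 10.07 in the gpr1 deletion, and 10.05 and 10.18 in wild type. The gpa2 arrays were lowest, by less than the standard error of a group difference. Its log2 change in the gpa2 deletion against wild type was -0.12 ± 0.21 (limma adjusted p = 0.865). A control probe set of the array carries the locus tag of EAF5 in its name and was not used by the selection; it was picked with its values already seen. It read 559.1 and 507.3 on the gpa2 arrays and 1201.6 and 636.5 on the gpr1 arrays, against 1339.8 and 809.4 on those of wild type, which after scaling is a log2 change of 0.06, with no test, in the gpa2 deletion against wild type. Against the mean of EAF3 and EAF5 alone, EAF7 shifted by -2.28 in the gpa2 deletion against wild type and by -0.07 in the gpr1 deletion against wild type.

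The catalytic core comprised ESA1, EPL1, YNG2 and EAF6, and none of the 3 that were tested passed in any comparison by limma. ESA1 (YOR244W), the acetyltransferase itself, had log2 intensities of 9.57 and 9.44 in the gpa2 deletion, 9.43 and 9.38 in the gpr1 deletion, and 9.28 and 9.11 in wild type. All 4 mutant arrays lay above both wild-type arrays. The log2 change was 0.31 ± 0.22 in the gpa2 deletion (adjusted p = 0.629) and 0.21 ± 0.22 in the gpr1 deletion (adjusted p = 0.9745), both against wild type.

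EAF6 (YJR082C), a small subunit that is also found in the NuA3 acetyltransferase, had log2 intensities of 8.12 and 8.52 in the gpa2 deletion, 8.78 and 8.79 in the gpr1 deletion, and 8.74 and 8.65 in wild type. The gpa2 arrays were the lowest of the 6. Its log2 change was -0.38 ± 0.26 in the gpa2 deletion against wild type (limma adjusted p = 0.609) and -0.47 ± 0.26 against the gpr1 deletion (adjusted p = 0.9997).

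YNG2 (YHR090C), a PHD-finger protein of the core, had log2 intensities of 8.495 and 7.89 in the gpa2 deletion, 8.59 and 8.31 in the gpr1 deletion, and 8.28 and 7.91 in wild type. The gpa2 arrays overlapped both other groups. Its log2 change against wild type was 0.10 ± 0.31 in the gpa2 deletion and 0.36 ± 0.31 in the gpr1 deletion (limma adjusted p = 0.938 and 0.955).

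EPL1 (YFL024C), which bridges the core to the rest of the complex, was the dimmest member and stayed outside the fit. It had readings, as deposited, of 41.2 and 39.3 on the gpa2 arrays and 105.8 and 20.9 on the gpr1 arrays, against 124.1 and 67.7 on the wild-type arrays. The gpr1 arrays held both the highest and the lowest scaled reading, 6.24 and 4.93. In the fit without the filter, its log2 change was -0.22 in the gpa2 deletion against wild type (limma adjusted p = 0.9504) and -0.61 in the gpr1 deletion against wild type (adjusted p = 0.894). The second value read -1.27 when gpr1 array 1 was left out and 0.05 when gpr1 array 2 was, and a floor at the 25th percentile gave 0.01.

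The platform and the shared subunits were EAF1, ARP4 and TRA1. EAF1 (YDR359C), the only subunit found in NuA4 alone among these 3, had log2 intensities of 7.69 and 7.31 in the gpa2 deletion, 7.52 and 7.39 in the gpr1 deletion, and 7.41 and 7.49 in wild type. Its groups overlapped in every comparison, and the log2 change against wild type was 0.05 ± 0.32 in the gpa2 deletion and 0.003 ± 0.32 in the gpr1 deletion (limma adjusted p = 0.973 and 0.999). ARP4 (YJL081C), an actin-related protein shared with the remodelling complexes SWR1 and INO80, had log2 intensities of 10.57 and 11.00 in the gpa2 deletion, 10.70 and 10.93 in the gpr1 deletion, and 10.58 and 10.81 in wild type. It overlapped between all groups as well, with log2 changes of 0.09 ± 0.24 in the gpa2 deletion and 0.12 ± 0.24 in the gpr1 deletion against wild type (limma adjusted p = 0.920 and 0.990).

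TRA1 (YHR099W), the large subunit that binds activators and is shared with SAGA, had log2 intensities of 10.06 and 10.27 in the gpa2 deletion, 10.39 and 10.41 in the gpr1 deletion, and 10.28 and 10.88 in wild type. The gpa2 arrays lay lowest, the upper of them just under wild-type array 1. Its log2 change in the gpa2 deletion against wild type was -0.41 ± 0.25 (limma adjusted p = 0.571). This value rested on wild-type array 2: it was -0.11 without that array and -0.71 without wild-type array 1.

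TRA1 is the one subunit with several probe sets, 13 in all, of which 5 passed the filter. All 5 of these read lower in the gpa2 deletion than in wild type, with log2 changes between -0.89 and -0.41, and none passed the test by limma (lowest adjusted p = 0.535). In the gpr1 deletion 3 of the 5 read lower and 2 higher than in wild type, between -1.14 and 0.21. By annotation they are readings of 1 transcript, which was not checked by sequence, and they are not independent. After scaling, 12 of the 13 read higher on wild-type array 2 than on wild-type array 1, and as deposited 6 of the 13 did. That array also had the highest SPT15 ratio, and the part of RNA quality in this difference was not tested.

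**Figure D3:**
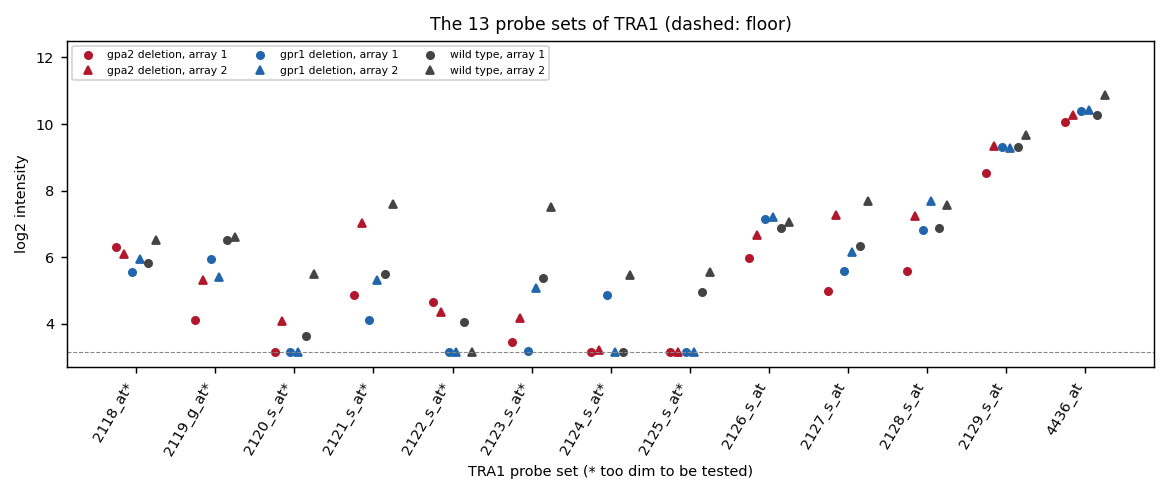
Log2 intensity of the 13 TRA1 probe sets on each array (red, gpa2 deletion; blue, gpr1 deletion; black, wild type; an asterisk marks those too dim to be tested; the dashed line is the floor). The brightest, at the right, reads between 10.06 and 10.88, and 4 of the probe sets reach the floor on at least 1 array.

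Across the 9 subunits other than EAF7, the median log2 change was 0.05 in the gpa2 deletion against wild type, 0.003 in the gpr1 deletion against wild type and -0.03 between the deletions. The median of all tested probe sets was -0.02, -0.001 and -0.01 in the same comparisons. In the gpa2 deletion 5 of the 9 read higher and 4 lower than in wild type, between -0.41 for TRA1 and 0.31 for ESA1. In the gpr1 deletion 5 read higher and 4 lower, between -0.61 for EPL1 and 0.36 for YNG2.

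By limma, 0 of the 8 tested subunits other than EAF7 passed an adjusted p under 0.05 in the gpa2 deletion against wild type, where 0.776% of all 6956 probe sets passed. The count was also 0 of 8 in the gpr1 deletion against wild type, where 0.230% of probe sets passed, and 0 of 8 between the deletions, where 0.0288% passed. At an unadjusted p under 0.05 it was again 0 in each of the 3 comparisons, with 11.4%, 6.64% and 2.34% of all probe sets past it. With so few calls over the whole array, a count of 0 among 8 stands near the background.

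The groups did not overlap for 5 of these 8 subunits in the gpa2 deletion against wild type. EAF3 and ESA1 were higher, as were 19.0% of all tested probe sets, and EAF5, EAF6 and TRA1 were lower, as were 20.8%. In the gpr1 deletion against wild type 3 were higher without overlap, EAF6, ESA1 and YNG2, and 1 lower, EAF3, with 16.1% and 16.3% of all probe sets. Between the deletions 2 were higher, EAF3 and ESA1, and 3 lower, EAF5, EAF6 and TRA1, with 15.9% and 15.0%.

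The spread between 2 arrays per group set the precision for these subunits. Over the 8 tested, standard errors had a median of 0.24 (log2). Their 95% intervals, not adjusted for the number of genes, reached down to -0.99 (TRA1) and up to 0.81 (ESA1) in the gpa2 deletion against wild type. In the gpr1 deletion against wild type they ran between -0.76 (TRA1) and 1.07 (YNG2).

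**Figure D4:**
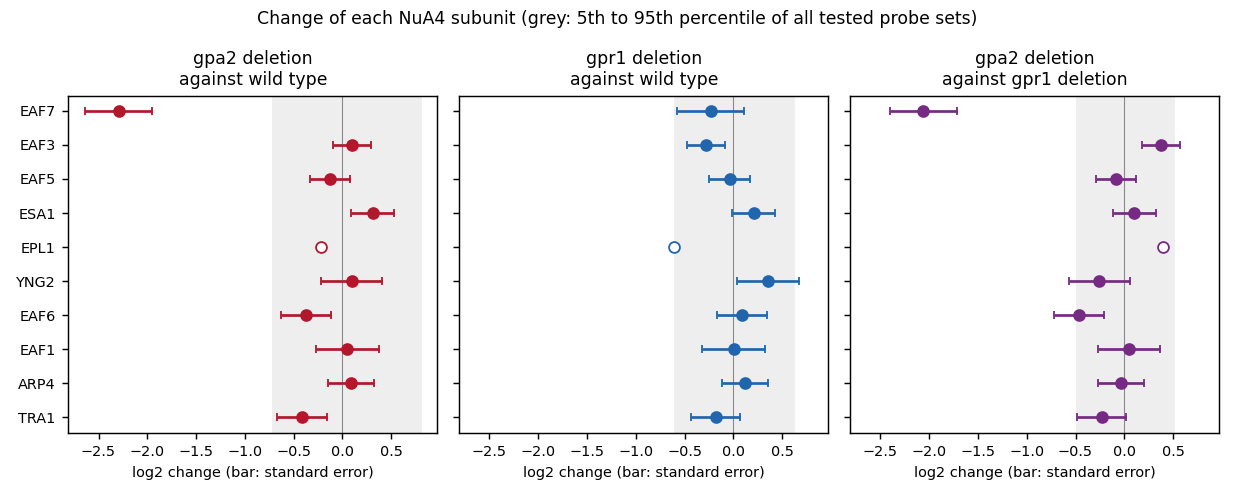
Log2 change of each subunit in the 3 comparisons, with its standard error (open circles, EPL1, which was too dim to be tested; grey, the 5th to the 95th percentile of all 6956 tested probe sets). EAF7 lies at -2.29 and -2.06 in the comparisons that involve the gpa2 deletion and at -0.23 in the gpr1 deletion against wild type, while the other subunits lie between -0.61 and 0.39.

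The 3 remaining NuA4 subunits, SWC4, YAF9 and ACT1, are shared with SWR1 and were all measured. In the gpa2 deletion against wild type their log2 changes were 0.04, 0.36 and 0.06, and in the gpr1 deletion against wild type -0.18, 0.16 and 0.03. None passed by limma in any comparison. YAF9, which holds a YEATS domain that reads acetylated histones, had readings, as deposited, of 457.8 and 308.4 on the gpa2 arrays and 729.5 and 405.9 on the gpr1 arrays, against 743.3 and 469.4 on those of wild type (log2 change 0.36 ± 0.28 in the gpa2 deletion against wild type, adjusted p = 0.672).

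Complexes that share subunits with NuA4 or act on the same histones were read from fixed lists. These lists are not complete, and NuA4 members such as ARP4 and TRA1 were not repeated on them. With the 3 subunits above, 8 lists held 71 genes, 64 with a probe set of their own and 60 tested. By limma 0 of the 60 passed in any of the 3 comparisons. At an unadjusted p under 0.05 there were 3 lower and 0 higher in the gpa2 deletion against wild type, 1 higher in the gpr1 deletion against wild type, and 1 lower between the deletions. Over all probe sets 11.4%, 6.64% and 2.34% passed that limit in the same comparisons, so the listed genes stood no higher than the background.

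SAGA, the acetyltransferase complex that shares TRA1, had 12 members tested and a median log2 change of -0.03 in the gpa2 deletion against wild type. Its widest change against wild type was that of SGF29, which reads methylated histone H3. SGF29 had readings, as deposited, of 99.2 and 54.9 on the gpa2 arrays and 383.7 and 165.5 on the gpr1 arrays, against 508.3 and 228.9 on those of wild type. Its log2 change was -1.24 ± 0.38 in the gpa2 deletion (limma adjusted p = 0.266) and -0.15 ± 0.38 in the gpr1 deletion (adjusted p = 0.997). GCN5 lay beside it at -1.23 ± 1.01 in the gpa2 deletion, where its 2 arrays read 130.2 and 9.1 as deposited.

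The 11 genes listed here for INO80, the remodeller that shares ARP4, are only part of that complex and leave out ARP4. Of the 11, 9 lay below 0 in each of the 3 comparisons. The list had medians of -0.30 in the gpa2 deletion and -0.07 in the gpr1 deletion against wild type. Of all tested probe sets 47.9% were above 0 in the gpa2 deletion against wild type, 49.9% in the gpr1 deletion against wild type and 47.9% between the deletions. The 3 comparisons share their arrays, so these counts are not independent of each other. The catalytic subunit gene INO80 read -0.56 ± 0.26 in the gpa2 deletion against wild type (limma adjusted p = 0.467). SWR1, which exchanges Htz1 into nucleosomes, had 7 of 9 tested genes of its list above 0 in the gpa2 deletion (median 0.13), and SWC3 read 0.66 ± 0.43 in the gpr1 deletion (adjusted p = 0.902). The 3 genes listed here for NuA3, which shares EAF6, are only part of that complex. They had medians of 0.22 in the gpa2 deletion and 0.24 in the gpr1 deletion against wild type, and NTO1 read 0.38 in both (adjusted p = 0.764 and 0.9745).

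The Rpd3 deacetylase list, which covers more than the complex that holds EAF3, had 10 tested members. Its median was -0.19 in the gpa2 deletion against wild type, and SDS3 read -0.87 ± 0.39 in the gpr1 deletion (limma adjusted p = 0.771). Among 8 tested genes of other acetyltransferases the median was -0.13 in the gpa2 deletion, and RTT109, which acetylates histone H3, read 1.00 ± 0.50 (adjusted p = 0.490). RTT109 had log2 intensities of 8.91 and 8.77 in the gpa2 deletion, against 8.71 and 6.98 in wild type. Both gpa2 arrays were the higher ones after scaling, and wild-type array 2 lay far below wild-type array 1. Of 10 histone genes 4 had a probe set of their own. HTZ1, the variant that NuA4 acetylates, read 0.72 ± 0.33 in the gpa2 deletion and 0.44 ± 0.33 in the gpr1 deletion against wild type (adjusted p = 0.458 and 0.925). Its log2 intensities were 11.33 and 10.95 in the gpa2 deletion, 10.68 and 11.05 in the gpr1 deletion, and 10.90 and 9.94 in wild type. Both changes thus leaned on wild-type array 2, while wild-type array 1 lay between the gpr1 arrays and just under the lower gpa2 array.

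**Figure D5:**
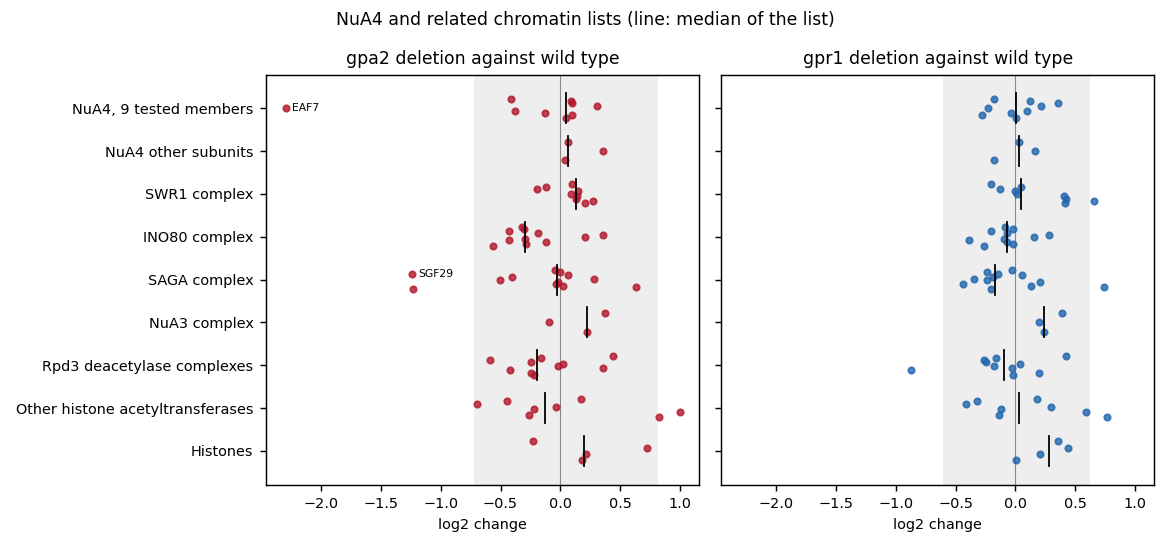
Log2 change against wild type of the tested NuA4 members and of 8 lists of related chromatin genes in the gpa2 deletion (left) and the gpr1 deletion (right), with 1 point per gene, a black line at each list's median and grey for the 5th to the 95th percentile of all tested probe sets. EAF7 at -2.29 is the lowest point on the left, followed by SGF29 at -1.24 and GCN5, a SAGA member, at -1.23.

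Profiles like that of EAF7 were sought by the root mean square difference between log2 values, each centred on its own mean over the 6 arrays, among 5649 other probe sets that name 1 gene. The nearest were PBY1, a protein found with P-bodies (0.222), SNT309, a splicing factor (0.444), ECM10, a mitochondrial Hsp70 protein (0.461), UTP20, a ribosome assembly factor (0.469), and NUP188, a nuclear pore protein (0.509). PBY1 had readings, as deposited, of 24.3 and 21.6 on the gpa2 arrays and 241.9 and 72.8 on the gpr1 arrays, against 304.3 and 219.1 on those of wild type. Like EAF7 it read lower on gpr1 array 2 than on gpr1 array 1, also after scaling. The median over all probe sets compared was 1.08 and the 5th percentile 0.848. Among the other 9 subunits the nearest to EAF7 were EAF6 (0.873) and TRA1 (0.934), and the farthest was EAF3 (1.16). The likeness rests on 6 arrays and, being a selection from many, carries no test.

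Chromosome neighbours of the members were read from the order of genes in the R64 assembly. EAF7 lies between NAM9, a mitochondrial ribosomal protein gene, and FPR1, which had no probe set of its own. NAM9 had readings, as deposited, of 893 and 838.7 on the gpa2 arrays and 1804.4 and 907.8 on the gpr1 arrays, against 1834.8 and 737.9 on those of wild type. Its log2 change in the gpa2 deletion against wild type was 0.59 ± 0.28 (limma adjusted p = 0.481), opposite in sign to that of EAF7. The wild-type readings of NAM9 lay far apart, 1834.8 and 737.9, where the array medians were 562.9 and 373.6. Its change without wild-type array 2 was not calculated. Of the 18 neighbours of the other 9 subunits 17 were tested, and 0 passed by limma in any comparison. Their log2 changes against wild type ran between -0.82 and 0.41 in the gpa2 deletion and between -0.47 and 0.35 in the gpr1 deletion.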

How the data were processed

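The members, gene lists and tests were chosen with earlier results of these data known. Total RNA of 6 samples was hybridised to single-colour arrays, and the authors deposited 1 linear intensity per probe set, with a summary method and any scaling that the sources used here do not give. Samples were grouped by the labels, and 0 columns were left unmapped. Array medians differed by up to 1.32 (log2), over a limit of 0.2, so the intensities were quantile normalised, raised to a floor at the pooled 10th percentile and put on the log2 scale. Of 9335 probe sets, 60 controls and 2319 with a mean under the 25th percentile were left out, which left 6956. Symbols were matched by gene identifier, with 0 updated. Comparisons were fitted with limma 3.58.1 in R 4.3.3, over all 6 arrays with 1 coefficient per group (3 residual and 5.52 prior degrees of freedom, trend), with Benjamini-Hochberg adjustment over all 6956. EAF7 carries no test. The fit was tested on simulated data. Named genes are the 10 subunits, the 3 others of NuA4, from each other list those that passed or else the one with the widest change against wild type, the 5 nearest profiles to EAF7 and its neighbours. GCN5 was added because its change lay beside that of SGF29. Precision is limited by 2 arrays per group. Alternatives covered scaling, floor, filter, moderation, a replicate block, the arrays fitted, the probe sets of a gene and leaving out each array.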

Additional observations from a re-analysis of the deposited data

Results flagged for a closer look

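EAF3 and EAF6 stood on opposite sides of the wild-type mean in the 2 deletions, on every array. They were picked from the subunits other than EAF7 by this pattern of signs. The share of all probe sets with that pattern was not counted, so how common it is was not tested. EAF3 was higher on both gpa2 arrays and lower on both gpr1 arrays, a difference between the deletions of 0.38 on the log2 scale. EAF6 was lower on both gpa2 arrays and higher on both gpr1 arrays, a difference of -0.47. By limma neither difference passed (adjusted p = 0.9997 for both, unadjusted p = 0.0836 for EAF3 and 0.104 for EAF6). On the values as deposited the EAF3 difference was -0.34, where the median of all probe sets was -0.70. With median centring it was 0.35.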

How the results depend on the processing

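In each of the 3 comparisons and under all 16 alternatives run, the number of subunits other than EAF7 past the threshold was 0, also with the replicate number as a replicate block. The labels do not say what a number marks, each comparison holds only 2 pairs, and deviations of same-numbered arrays correlated at 0.404 (gpa2 and wild type), 0.209 (gpa2 and gpr1) and 0.203 (gpr1 and wild type). The block gave 123 calls over all probe sets against 54 without it in the gpa2 deletion against wild type, and 33 against 16 in the gpr1 deletion against wild type. EAF7 minus the mean of the other subunits ran between -2.38 and -2.09 when each array was left out in turn in the gpa2 deletion against wild type, between -2.31 and -1.78 between the deletions, and between -0.461 and 0.0702 in the gpr1 deletion against wild type, where its sign turned without gpr1 array 2. The median of the other 9 subunits ran between -0.139 and 0.0507, between -0.0958 and 0.0453, and between -0.0485 and 0.0488 in the same order. In the gpa2 deletion against wild type the upper end was the main value. Leaving out any gpa2 or wild-type array made that median negative, between -0.139 and -0.0244. On the values as deposited the median of the other 9 subunits was -0.99, -0.74 and -0.30, where the median of all probe sets was -1.02, -0.70 and -0.32. Median centring gave 0.00042 in the gpa2 deletion against wild type. For single subunits other than EAF7, 381 of 432 values under an alternative lay within the spread between replicates of the main value. Much of this share was fixed in advance. The filter, the moderation, the replicate block and fitting only the groups compared cannot change a log2 change. Nor can leaving out an array of the third group. The share is therefore no measure of stability. The lowest adjusted p was 0.103, for TRA1 in the gpa2 deletion on the values as deposited. Of 27 changes of single subunits other than EAF7, 18 turned sign under at least 1 alternative. Low signal limits EPL1 and the gpa2 readings of EAF7 most.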
